A study of Mus musculus with 24 samples.

Results

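Dermal fibroblasts from mouse skin in which epidermal beta-catenin had been kept active were compared with dermal fibroblasts from resting wild-type skin, on 3 arrays against 3 of the 24 arrays in the series. All 45037 non-control probe sets were tested, and the 4560 genes that the authors' own tables name were described. The cells were sorted as GFP+ dermal fibroblasts from mice of a C57BL/6 CBA mixed background, 1 mouse per array. The telogen group was wildtype skin in the resting phase of the hair cycle (mice 2, 3 and 4), and the sustained group was D2 skin with sustained activation (mice 2, 3 and 5), where equal numbers in different states were taken as different mice. The transient group (D2 skin after transient activation, mice 2, 3 and 4), the neonatal group (newborn wildtype skin, mice 1, 2 and 3) and the ItgA6+ keratinocytes sorted from the sustained D2 skin served as side comparisons. Keratinocytes of wildtype telogen skin entered only the results flagged for a closer look. The keratinocyte arrays carry the same mouse numbers as the dermal arrays of their state, 2, 3 and 5 for sustained and 2, 3 and 4 for telogen skin.

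Published descriptions of the D2 line give it an epidermal transgene, driven by a keratin 14 promoter, that encodes a stabilised beta-catenin fused to a hormone-binding domain and is switched on by 4-hydroxytamoxifen. In the same descriptions GFP marks cells that express Pdgfra, a receptor of dermal fibroblasts. Neither Pdgfra nor Krt14 has a named probe set here. The labels give no age, dose or duration, and they do not say whether the wildtype mice received the drug. Genotype, activation and any drug given cannot be told apart in this comparison.

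In the hair cycle, beta-catenin signalling in keratinocytes starts follicle growth, and prolonged signalling makes new follicles from existing epidermis. A growing follicle signals to the fibroblasts around it, and a small cluster of them, the dermal papilla, sends Wnt, BMP and FGF pathway signals back. Sonic hedgehog made by follicle keratinocytes is received by neighbouring fibroblasts, which answer by making Gli1 and Hhip.

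Values are the deposited log2 values. The difference is the sustained mean minus the telogen mean, its error is the standard error from a limma model of the 12 dermal arrays, and calls were made where p, adjusted over all 45037 probe sets by the method of Benjamini and Hochberg, was under 0.05. The calls numbered 4951, or 11.0%. The 3239 higher in sustained dermis were 7.19% and the 1712 lower were 3.80%. The call count was 2334 without sustained replicate 2, 3273 without sustained replicate 3, 2783 without sustained replicate 5 and 3008 without telogen replicate 4. The median difference over all probe sets was 0.42, because the sustained arrays had higher medians (4.81 to 5.06) than the telogen arrays (4.34 to 4.51) after the deposited scaling. Quantile normalization took that median difference to 0.03 and gave 1641 higher against 1992 lower, and centring each array on its median took it to -0.10 and gave 1373 against 3845. The split between higher and lower calls thus depended on the scaling.

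Among the 4560 named genes, 823 were higher (18.0%) and 888 lower (19.5%), with a median difference of 0.09. These percentages are the background for every gene group below. They exceed those over all probe sets, and the names come from lists that the authors chose on these same arrays, so a named gene had already been picked for changing in some comparison. The 2 groups of arrays did not overlap for 62.4% of the named genes (30.9% higher, 31.5% lower) and for 34.3% of all probe sets (24.7% higher, 9.56% lower). The authors' deposited table headed ectopic follicles against telogen, dermal fibroblasts, was taken as their sustained against telogen comparison. It lists 2978 probe sets, 1106 up and 1872 down. Of the probe sets in the authors' deposited table, 2278 were called here and 2974 had the same direction. That table rests on these same arrays, so the shared direction is no independent support. It lists no fold under 2.0, a criterion unlike the adjusted p used here. Most of its probe sets were down, whereas most calls here were higher.

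The sort was checked against fibroblast genes. The summed linear level of 14 named fibroblast markers was 35000 to 40500 in telogen and 23600 to 27900 in sustained dermis, without overlap. Col1a1, Col1a2, Col3a1, Vim and Prrx1 were bright in both groups and were not called. Col1a1, the main chain of type I collagen, read 12.49, 12.20 and 12.27 in telogen and 12.06, 11.93 and 11.80 in sustained dermis, against a mean of 5.76 in sustained epidermis. Of 14 named fibroblast markers 6 fell, among them Mfap5, Fap, Lum, Dpt and Dcn, and Twist2 rose by 1.02, a call that held with telogen replicate 4 left out but not with any other array left out. Under median centring none was higher and 11 were lower, and with all 24 arrays, or with the 6 compared arrays alone, none was higher and 1 was lower. In sorted populations, fewer cells of a type and less RNA per cell cannot be told apart.

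The genes with the largest rises, among those bright in at least 1 group, measurable in both and without overlap between the groups, were led by Hhip, a cell-surface inhibitor that binds hedgehog ligands. Hhip read 4.15, 3.78 and 4.66 in telogen and 8.36, 8.15 and 9.84 in sustained dermis. The lowest sustained array stood well above the highest telogen array, and the difference was 4.59 ± 0.52 (SE, adjusted p = 0.00128). Col11a1, a minor fibrillar collagen chain, rose by 4.41 ± 0.33, Cxcr4, the receptor for the chemokine Cxcl12, by 4.25 ± 0.32, and Ngfr, the low-affinity neurotrophin receptor, by 3.90 ± 0.40. Cxcr4 was the brightest of them, at 11.69, 11.57 and 11.50 in sustained dermis against 7.08, 7.20 and 7.71 in telogen. The rest of the 15 were Ripor2, A830082K12Rik, Dnah11, Chst2, Frzb, Adamts9, Kif26b, A730054J21Rik, Ccnb2, Trib2 and Gli1, with rises of 3.90 to 4.47. Calls were also made in 16 alternative settings of scaling, filter, model or array set. Dnah11 kept its call in 9 of them and Gli1 in 12, and the others kept theirs in all 16.

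The 15 largest falls, chosen by the same rule, included Sod3 and C3. Sod3, the extracellular superoxide dismutase, read 10.47, 10.62 and 10.40 in telogen and 3.34, 6.38 and 5.54 in sustained dermis, a fall of 5.41 ± 0.84 (adjusted p = 0.00431). The sustained arrays were spread over more than 3 log2 units, and all lay below the telogen arrays. C3, the central complement component, read 11.24, 11.00 and 11.34 against 5.60, 6.68 and 6.41, and the difference was -4.96 ± 0.43 (adjusted p = 0.000567). The telogen arrays were tight and the sustained arrays ran from 5.60 to 6.68. The gap corresponded to a 31.1-fold lower level, and the authors' deposited fold was 51.2. Cp (ceruloplasmin, a copper-carrying ferroxidase), Mmp3 (stromelysin), Gda (guanine deaminase) and C1qtnf3 fell by 4.88, 4.70, 5.29 and 5.40. Oxtr, Ifi207, Pamr1, Pcsk6, Pla1a, Kcnk2, Klk1, Pgr and Popdc2 completed them, with falls of 4.54 to 4.77. Ifi207 kept its call in 11 of the 16 alternative settings, Pla1a in 14, and Pgr and Popdc2 in 15.

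**Figure D1:**
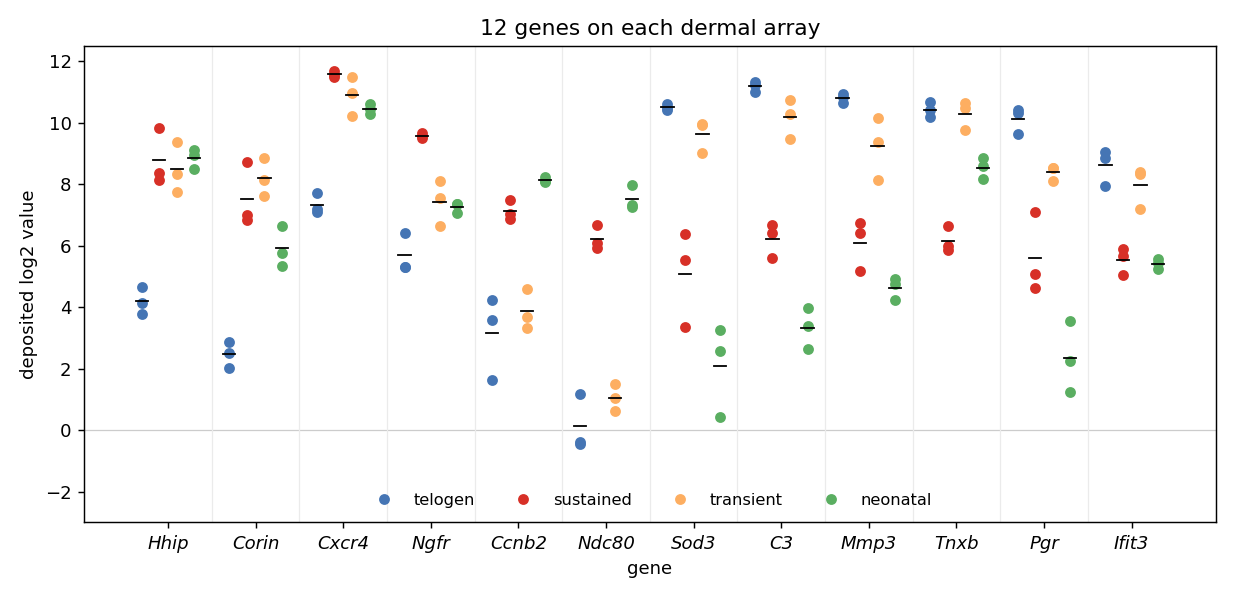
Deposited log2 value (vertical axis) of 12 genes on each of the 12 dermal arrays. Points are arrays, coloured by state, and black bars are group means. Sustained arrays lie above every telogen array for the 6 genes on the left and below every telogen array for the 6 on the right. The genes come from those chosen for no overlap between these 2 groups, so this separation was fixed by the choice.

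Dermal papilla genes rose as a group. Of 35 named papilla genes 20 were higher (background 18.0%), 2 were lower and 13 were not called, with a median difference of 1.76 against 0.09 over all named genes. Quantile normalization also gave 20 higher, median centring gave 18, and leaving out 1 array at a time gave 16 to 21. Corin, a membrane protease used as a papilla marker, read 2.03, 2.87 and 2.52 in telogen and 7.01, 6.84 and 8.73 in sustained dermis, a difference of 5.05 ± 0.56 (adjusted p = 0.00117). Its mean in sustained epidermis was 2.45, close to the telogen dermal level. Rspo2, which amplifies Wnt signals, read -2.10, -2.43 and -2.38 in telogen and 4.78, 5.69 and 8.03 in sustained dermis. The telogen values were among the dimmest on those arrays, so no size is given.

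Sox18, a transcription factor of papilla and vessel cells, rose by 3.70 ± 0.72, from a mean of 5.58 ± 0.14 (SD, n = 3) to 9.28 ± 0.63 (SD, n = 3). Sustained replicate 5 was the highest sustained array for Hhip, Corin, Rspo2 and Sox18. The summed linear level of the 35 genes was 22700, 23800 and 30600 on sustained replicates 2, 3 and 5, and 14900 to 16000 on telogen arrays. In transient dermis the sum reached 21000 to 32500, which spans the sustained range.

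Not every papilla gene followed. Lpl, the lipoprotein lipase, fell by 2.32 ± 0.34, and Igfbp5, a binding protein for insulin-like growth factors, fell by 1.18 ± 0.23. Igfbp5 was 12.39, 12.10 and 12.22 in telogen and 10.66, 11.33 and 11.18 in sustained dermis, without overlap. Vcan, the proteoglycan versican, read 10.07, 9.99 and 10.69 in sustained and 9.98, 10.16 and 9.99 in telogen dermis, and was not called. Sdc1 and Enpp2 were 0.67 and 0.76 higher with adjusted p of 0.0664 and 0.0695.

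Most hedgehog pathway genes were higher. Of 15 named, 10 were higher and 2 lower, with a median difference of 1.30, and 9 were higher after quantile normalization and 7 after median centring. The number higher fell to 5 without sustained replicate 2 and to 6 without sustained replicate 3, sustained replicate 5 or telogen replicate 2. The number lower was 1 without sustained replicate 2 or 5 or telogen replicate 2, 3 or 4. Gli1, the transcription factor induced by the pathway, read 3.32, 4.78 and 5.46 in telogen and 8.05, 8.20 and 8.99 in sustained dermis.

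Shh, the ligand, is a product of follicle keratinocytes. It read 0.09, -1.08 and -1.44 in telogen and 4.33, 4.48 and 3.80 in sustained dermis, with a mean of 7.07 in sustained epidermis. Scube1, a secreted member of a family that releases hedgehog ligands, rose by 4.32 ± 0.73. The members that fell were Disp1, which exports the ligand, by 2.14 ± 0.39, and Cdon, a co-receptor, by 1.24 ± 0.34. Gli3, which acts mainly as the repressor of the pathway, was 7.37, 7.55 and 7.11 against 7.67, 7.79 and 7.67 and was not called.

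Wnt pathway genes moved in both directions. Of 47 named, 15 were higher and 5 lower, and the median difference was 0.47. Under median centring the split was 8 higher and 7 lower with a median of -0.04, and without sustained replicate 2 it was 9 and 3. The number lower was also 3 without sustained replicate 3 or 5 or telogen replicate 2. Frzb, a secreted Wnt antagonist, read 4.44, 4.96 and 4.34 in telogen and 8.77, 8.54 and 8.98 in sustained dermis, and the difference was 4.19 ± 0.28 (adjusted p = 0.00026). The antagonists Sostdc1, Wif1 and Dkk1 rose by 3.26, 2.76 and 4.21. The lists share members. Sostdc1, Wif1, Lef1 and Rspo2 are counted among the papilla genes too, as are Hhip, Cxcr4, Bmp6 and Inhba of other lists, so list counts are not independent. Dkk1 was uneven in telogen, at 3.28, -0.10 and 1.58. It kept its call in 6 of 16 alternative settings, against 16 for Sostdc1 and 15 for Wif1. Lef1, the DNA-binding partner of beta-catenin, read 6.36, 6.34 and 6.82 against 8.37, 8.39 and 9.04, a rise of 2.10 ± 0.35.

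Among the Wnt genes that fell were receptors. Fzd4 fell by 2.41 ± 0.34 and Ror2 by 1.71 ± 0.22. Ccn5, a matrix-associated growth regulator, fell by 3.48 ± 0.54, from 8.82, 9.04 and 9.36 to 5.76, 5.70 and 5.31. Sp5, a transcription factor that Wnt signals induce in many cells, was 5.11, 5.17 and 5.37 in telogen and 1.99, 1.48 and 1.03 in sustained dermis, a difference of -3.72 ± 0.98 (adjusted p = 0.0389). Apcdd1, a Wnt inhibitor, was above 11 on all 6 arrays with a difference of -0.01.

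In the BMP, TGF-beta and Notch list, 5 of 35 were higher and 10 lower, with a median of -0.20. After median centring 3 were higher and 14 lower. The number higher was 2 without sustained replicate 5 or telogen replicate 4 and 3 without telogen replicate 2, and the number lower was 6 without sustained replicate 2 or telogen replicate 2. Grem1, a secreted BMP antagonist, fell by 3.18 ± 0.62. Bmp6, a ligand, rose by 3.11 ± 0.71, Inhba, the activin A subunit, by 1.67 ± 0.45, and Lfng and Heyl, a modifier and a target of Notch, by 2.46 and 1.79.

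Most genes of cell division were higher. Of 68 named members 54 were higher, none was lower and 14 were not called, and the median difference was 2.82. Quantile normalization gave 47 higher, median centring gave 46, and leaving out 1 array at a time gave 39 to 52. With an offset of 16 added before the logarithm 60 were higher, and the median difference was 1.66. Ccnb2, a mitotic cyclin, read 1.64, 3.58 and 4.23 in telogen and 7.50, 6.87 and 7.02 in sustained dermis, a difference of 3.98 ± 0.59 (adjusted p = 0.0036). Ndc80, a part of the kinetochore, read -0.38, 1.17 and -0.44 against 6.08, 5.92 and 6.68. The sustained arrays were even among themselves. The telogen arrays were near the bottom of their range, so no size is given. Cenpf, Aurkb and Melk, which act in chromosome alignment and mitotic control, rose by 5.81, 5.12 and 4.51 from telogen means of 1.11, 1.53 and 1.32, which were also low. The authors' deposited folds for these probe sets, ratios of unlogged values, were 8.2, 5.7 and 3.7, much smaller than these log2 rises imply.

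Of 49 named replication and repair genes 29 were higher and none was lower, with 18 higher without sustained replicate 2 and 17 without sustained replicate 5. Quantile normalization gave 22 and median centring 20. E2f7, a cell-cycle repressor, rose by 3.51 ± 0.43, and Fanci, a DNA crosslink repair protein, rose from a telogen mean of 0.25 to a sustained mean of 4.75. Pcna, the replication clamp, was bright in all samples and was not called, at 9.75, 9.74 and 9.74 in sustained and 9.55, 9.26 and 9.60 in telogen dermis. Fen1 was 0.35 and Rrm1 0.80 higher, also without a call.

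The promoters of the cell-division genes were searched for 2 short sequences. RefSeq gives a promoter of 300 bases (250 before the gene's start and 50 after, build GRCm38.p6) for 54 of the 68 genes. The cell cycle genes homology region, searched as TTTGAA on both strands, was present in 35 of the 54 (64.8%) and in 18.1% of 27025 RefSeq promoters. The CCAAT box, searched as CCAAT on both strands, was present in 37 of the 54 (68.5%) and in 37.9% of all. Both were present in 29 (53.7%), against 7.12% of all. These counts cover all members with a promoter, called or not, and describe the list rather than the rise. Of the 42 called members among them, 28 held the first sequence, 29 the second and 23 both. Among the members named for the largest rises in this list, Cenpf was the only gene that held both. Its promoter lies on the minus strand at chr1:189688037-189688336 and is shown with the matches in capitals. A match describes the letters and does not show binding.
Cenpf: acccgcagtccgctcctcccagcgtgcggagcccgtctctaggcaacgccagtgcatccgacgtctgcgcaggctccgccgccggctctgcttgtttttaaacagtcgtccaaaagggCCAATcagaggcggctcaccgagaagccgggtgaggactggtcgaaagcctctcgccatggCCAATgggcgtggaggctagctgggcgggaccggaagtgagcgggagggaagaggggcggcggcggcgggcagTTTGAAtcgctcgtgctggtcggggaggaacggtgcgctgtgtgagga

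Keratinocyte genes moved in the same direction as the cell-division genes, so their levels are given beside them. Of 18 named keratinocyte markers 5 were higher and none lower: Krt5, Krt17, Itga6, Pkp1 and Trp63. Leaving out sustained replicate 2 or sustained replicate 5 left 2 higher. The summed linear level of the 18 was 3680, 2820 and 5030 on sustained replicates 2, 3 and 5, against 1050 to 1730 in telogen dermis and 17800 to 21600 in sustained epidermis. Of 11 named hair follicle keratinocyte markers, inner and companion layer keratins among them, 9 were higher, for example Krt25 by 5.49 ± 0.83. Their sum was 783, 779 and 1770 against 187 to 201 in telogen, and Krt73, Krt75, Krt27, Tchhl1 and Shh had telogen means under 1.

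As a percentage of the sustained epidermal mean, the keratinocyte sum went from 6.99% in telogen to 19.4% in sustained dermis and the follicle keratinocyte sum from 5.66% to 32.5%. The cell-division sum went from 3100 to 3520 in telogen to 9370 to 12600 in sustained dermis, where its mean was 55.9% of the epidermal mean. Only 1 of the 54 raised cell-division genes and 2 of the 29 raised replication genes had a higher mean in sustained dermis than in sustained epidermis, with medians of 61.3% and 56.8% of the epidermal level. Of the 20 raised papilla genes 19 were above the epidermal level, with a median of 653%, as were 421 of all 823 raised named genes. Members that did not rise were placed alike. Above the epidermal level were 9 of the 13 uncalled papilla genes and the 2 lowered ones, and 2 of the 14 uncalled cell-division genes. The part of keratinocyte RNA in the rise of the cell-division genes was not tested.

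**Figure D2:**
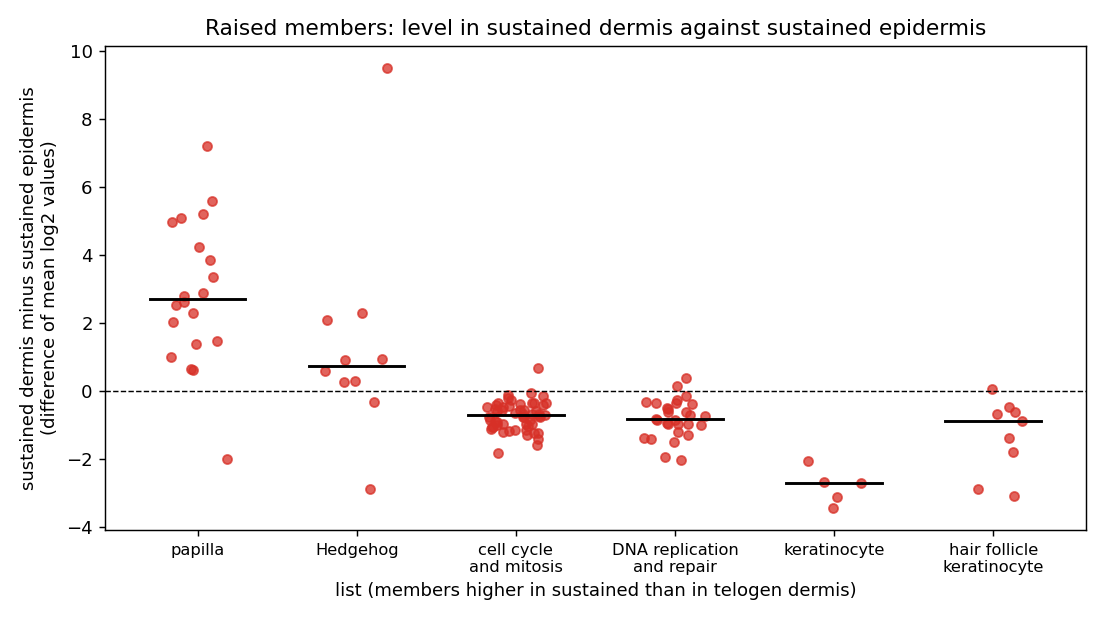
Genes higher in sustained than in telogen dermis, by list, with the sustained dermal mean minus the sustained epidermal mean on the vertical axis (log2). Points are genes, bars are medians and the dashed line marks equal levels. All but 1 of the papilla genes lie above the line, and all but 1 of the cell-division genes lie below it.

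Matrix enzymes and their inhibitors were mostly lower. Of 52 named, 31 were lower and 7 higher (background 19.5% and 18.0%), with a median of -1.14, and 24 to 28 were lower with 1 array left out. Mmp3 read 10.64, 10.84 and 10.93 in telogen and 5.17, 6.40 and 6.73 in sustained dermis. Ctsh, a lysosomal cathepsin, fell by 4.16 ± 0.39, Plau, the urokinase plasminogen activator, by 3.83 ± 0.33, and Dpp4, a dipeptidase on papillary and fascial fibroblasts, by 3.67 ± 0.37. Adamts9, a protease that cleaves versican and aggrecan, was 5.27, 4.25 and 5.88 in telogen and 9.32, 9.58 and 9.04 in sustained dermis. Serpine2 (a protease inhibitor expressed in papilla), Mmp16, Plod2 and Adamts18 rose by 2.35 to 2.92.

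The collagens and other matrix proteins divided, with 25 of 67 lower and 15 higher and a median of -0.42. After median centring 34 were lower and 11 higher. Tnxb, tenascin-X, which spaces collagen fibrils in adult dermis, read 10.19, 10.68 and 10.40 in telogen and 5.85, 6.65 and 5.98 in sustained dermis. The fall of 4.26 ± 0.33 (adjusted p = 0.000343) was called against transient and neonatal dermis too, at -4.13 and -2.37. Smoc2, Ecm1, Efemp1 and Col4a3 fell by 3.48 to 3.86. Fbn2, the fibrillin of developing tissue, rose by 3.26 ± 0.36, from 6.87, 6.44 and 5.88 to 9.70, 9.67 and 9.62, and Fmod, a collagen-binding proteoglycan, rose by 3.36 ± 0.55. Lama5 and Npnt, basement membrane proteins that epidermis also makes, rose by 3.25 and 3.49, with epidermal means of 8.78 and 10.92. The bulk proteins Sparc, Col3a1 and Col1a2 were 0.31 to 0.48 lower and were not called.

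**Figure D3:**
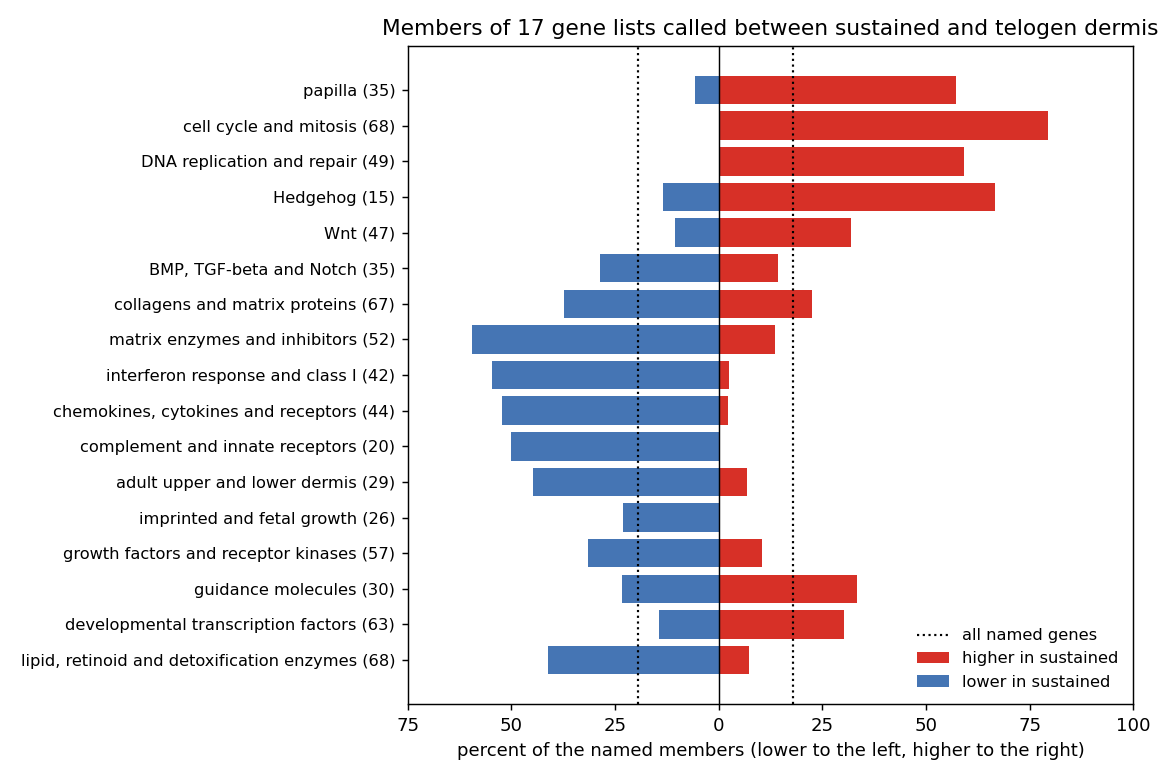
Percentage of the named members of each of 17 gene lists called higher (red, to the right) or lower (blue, to the left) in sustained than in telogen dermis, with the number named in brackets. Dotted lines mark the percentages over all 4560 named genes, 18.0% higher and 19.5% lower.

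In each of the 3 innate defence lists more members were lower than higher. In the interferon response and class I list 23 of 42 were lower and 1 higher, with a median of -1.62. The number lower was 13 without sustained replicate 2, 15 without sustained replicate 5 and 14 without telogen replicate 4. Ifit3, an antiviral protein induced by interferon, read 7.95, 8.86 and 9.06 in telogen and 5.06, 5.65 and 5.88 in sustained dermis, a difference of -3.10 ± 0.41 (adjusted p = 0.00218). Ifi204 and Ifit1, further interferon-induced genes, fell by 4.89 ± 0.53 and 3.89 ± 0.72. The exception was Ifitm1, which rose by 2.56 ± 0.37. The class I genes H2-K1, H2-D1 and B2m were 0.62 to 0.91 lower with adjusted p of 0.0525 to 0.269.

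The core of the interferon-stimulated response element, searched as GAAANNGAA on both strands, was present in 14 of 32 promoters of that list (43.8%) and in 8.57% of the 27025 promoters. These letters are shorter by 1 base than the form searched first, which a smaller share of all promoters held. They were chosen after that share had been seen. Of the 19 called members of the list with a promoter, 10 held the core, and the count of 14 covers members called or not. The promoters of Ifit1 (plus strand, chr19:34640639-34640938) and Ifit3 (plus strand, chr19:34583279-34583578), which both fell, each hold 3 matches, shown in capitals and all on the opposite strand, with the first pair in Ifit1 overlapping. A search of the 11 promoters of Hedgehog list genes for GACCACCCA, the core bound by Gli proteins, found no match, and 0.244% of all promoters held it.
Ifit1: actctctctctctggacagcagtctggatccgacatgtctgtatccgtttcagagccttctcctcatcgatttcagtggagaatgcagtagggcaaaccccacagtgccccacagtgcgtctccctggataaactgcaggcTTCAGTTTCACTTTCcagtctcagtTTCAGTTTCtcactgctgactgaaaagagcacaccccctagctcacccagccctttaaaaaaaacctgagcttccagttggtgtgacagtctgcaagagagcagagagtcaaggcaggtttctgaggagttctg
Ifit3: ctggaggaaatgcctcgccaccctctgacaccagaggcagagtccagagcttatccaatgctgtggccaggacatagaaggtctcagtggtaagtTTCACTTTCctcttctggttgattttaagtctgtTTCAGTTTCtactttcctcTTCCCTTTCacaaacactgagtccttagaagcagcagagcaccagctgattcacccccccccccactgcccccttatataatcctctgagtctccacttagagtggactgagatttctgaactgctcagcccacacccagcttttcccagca

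Chemokines, cytokines and their receptors were lower in 23 of 44 and higher in 1, Cxcr4, with a median of -1.46 and with 13 lower without sustained replicate 2 and 2 higher without telogen replicate 4. Ccl11, the eosinophil attractant eotaxin, read 10.32, 9.92 and 10.23 in telogen and 5.91, 6.41 and 6.39 in sustained dermis, and fell by 3.92 ± 0.40 (adjusted p = 0.000953). Ackr3, a scavenging receptor for the Cxcr4 ligand, fell by 4.01 ± 0.58, opposite to Cxcr4 itself. Il33, an alarm cytokine, fell by 3.97 ± 0.66. Complement and innate receptor genes were lower in 10 of 20 and higher in none, with a median of -1.58, and Cfb and C2, complement components upstream of C3, fell by 3.46 ± 0.39 and 2.79 ± 0.38. Tlr3, Nod1 and Masp1 were not called.

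Of 25 named macrophage and dendritic cell markers 3 were lower, Csf1r, Laptm5 and Cd74, a share below the 19.5% of all named genes. The number lower was 2 whichever 1 array was left out, and Cd74 kept its call in 9 of 16 alternative settings. A second Laptm5 probe set was 1.97 higher without a call. Csf1r, the receptor for the macrophage growth factor, read 9.44, 9.35 and 9.29 in telogen and 4.44, 5.38 and 4.96 in sustained dermis. The summed linear level of the 25 was 1210 to 1790 in telogen and 372 to 437 in sustained dermis, without overlap, and 1050 to 1710 in sustained epidermis. Without Csf1r, a sum added after the values were seen, it was 584 to 1090 and 350 to 405. C1qc and Cd209a had means under 1 in both dermal groups, and Lyz1, Lyz2 and H2-Ab1 were not called. The part of these cells in the falls of defence genes was not tested.

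Genes of lipid, retinoid and detoxification metabolism were lower in 28 of 68 and higher in 5, with a median of -0.74. Aldh1a1, which makes retinoic acid, fell by 4.44 ± 0.44, from 9.79, 9.57 and 9.98 to 4.40, 5.90 and 5.70. Gpx3, an extracellular glutathione peroxidase, fell by 4.40 ± 0.65 and the esterase Ces2g by 3.70 ± 0.42. Among the members that rose, the retinoic acid carrier Crabp2 rose by 3.05, Sqle of cholesterol synthesis by 1.33, and the fatty acid carrier Fabp5 by 1.15. The number higher was 3 after median centring and also without sustained replicate 2, sustained replicate 5 or telogen replicate 4. Apod was 11.57, 11.49 and 11.57 against 10.66, 10.66 and 11.15 and was not called.

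Pgr and Oxtr were among the 15 largest falls, and Esr1 is named because the transgene carries a hormone-binding domain. Pgr, the progesterone receptor, read 10.33, 9.65 and 10.42 in telogen and 5.08, 7.08 and 4.62 in sustained dermis, a difference of -4.54 ± 0.69 (adjusted p = 0.00387). Oxtr, the oxytocin receptor, read 9.98, 9.73 and 9.35 against 4.41, 5.75 and 4.59, and fell by 4.77 ± 0.46. Esr1, the oestrogen receptor alpha, read 8.92, 9.01 and 8.64 against 7.17, 7.65 and 6.54, and fell by 1.73 ± 0.35. The groups did not overlap for Esr1. Transient dermis, also from D2 mice, had means of 8.40 for Pgr, 9.23 for Oxtr and 8.65 for Esr1, and Oxtr alone of the 3 was called between sustained and transient dermis.

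Genes that mark layers of adult dermis were lower in 13 of 29 and higher in 2. Ebf2, a transcription factor, fell by 4.55 ± 0.82, Pla1a by 4.62 ± 0.79 and Clec3b, a plasminogen-binding protein, by 3.13 ± 0.69. The 2 that rose were Twist2, at 9.88, 9.66 and 9.55 in sustained and 8.66, 8.45 and 8.91 in telogen dermis, and Lrig1, by 1.03 ± 0.28. Neither was called without sustained replicate 2, sustained replicate 3 or telogen replicate 2, and 1 of the 2 was called without sustained replicate 5, telogen replicate 3 or telogen replicate 4. Median centring left neither higher and 18 lower.

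Growth factors and receptor kinases were lower in 18 of 57 and higher in 6. Hgf, a growth factor that fibroblasts send to epithelia, read 8.45, 8.55 and 8.19 in telogen and 5.30, 3.78 and 4.95 in sustained dermis, and fell by 3.72 ± 0.51. Pdgfd fell by 4.52 ± 0.63, Fgf13 by 4.12 ± 0.95, and Igfbp6 by 3.87 ± 0.54. The rises were in Ngfr, Mdk (midkine), Pdgfc, Fgf10, Pdgfa and Nrp2, the last of which is named here because it completes the list and was chosen after its value was seen. Pdgfc, a ligand of the fibroblast receptor Pdgfra, rose by 1.91 ± 0.29 to 6.64, 7.05 and 7.17 and was also 2.12 above transient and 1.93 above neonatal dermis.

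Guidance molecules split evenly, with 10 of 30 higher and 7 lower, and 6 and 9 after median centring. The number higher was 6 without sustained replicate 2. The class 3 semaphorins, secreted cues for axons and vessels, went apart. Sema3g read 6.29, 7.26 and 6.73 in telogen and 10.13, 10.30 and 10.40 in sustained dermis, a rise of 3.52 ± 0.38 (adjusted p = 0.00113). Sema3a read 9.70, 10.09 and 10.06 against 5.31, 5.58 and 5.58, a fall of 4.46 ± 0.33 (adjusted p = 0.000343). Sema3b and Sema3c fell by 3.40 and 1.90. Robo2, Plxnb1, Efnb3 and Epha7 rose by 2.10 to 3.49.

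Developmental transcription factors were higher in 19 of 63 and lower in 9, with a median of 0.72. After median centring 10 were higher and 16 lower, and without sustained replicate 2 12 were higher. Sox11, a factor of embryonic mesenchyme, read 4.63, 3.93 and 5.60 in telogen and 7.82, 7.69 and 8.06 in sustained dermis, a rise of 3.14 ± 0.42 (adjusted p = 0.00224). Its mean in sustained epidermis was -0.42, below its mean in both dermal groups. Mycn, a growth-promoting Myc family member, rose by 3.47 ± 0.47 with an epidermal mean of 9.20, and Lhx2, a follicle stem cell factor, by 2.92 ± 0.69 with an epidermal mean of 9.73. Foxo1 and Irx5 fell by 2.04 and 2.12, and Lmo2 by 4.43 ± 1.03. Klf4 and Zeb2 were bright and not called.

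No imprinted or fetal growth gene was called higher. Of 26 named none was higher and 6 were lower, a share near the background, with a median of -0.30. The 6 were 2 without sustained replicate 2 and 3 without sustained replicate 5, telogen replicate 2 or telogen replicate 4. Meg3 and Rian, noncoding RNAs of 1 imprinted cluster, fell by 1.39 and 1.46, and Mirg of the same cluster by 3.45 ± 0.52. Of 7 further Meg3 probe sets 1, of dimmer signal, was 0.73 higher without a call. Against neonatal dermis 15 of the 26 were lower and none higher, and the mean log2 level of the list was 5.55 to 5.95 on sustained, 5.88 to 6.05 on telogen and 7.95 to 8.35 on neonatal arrays.

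**Figure D4:**
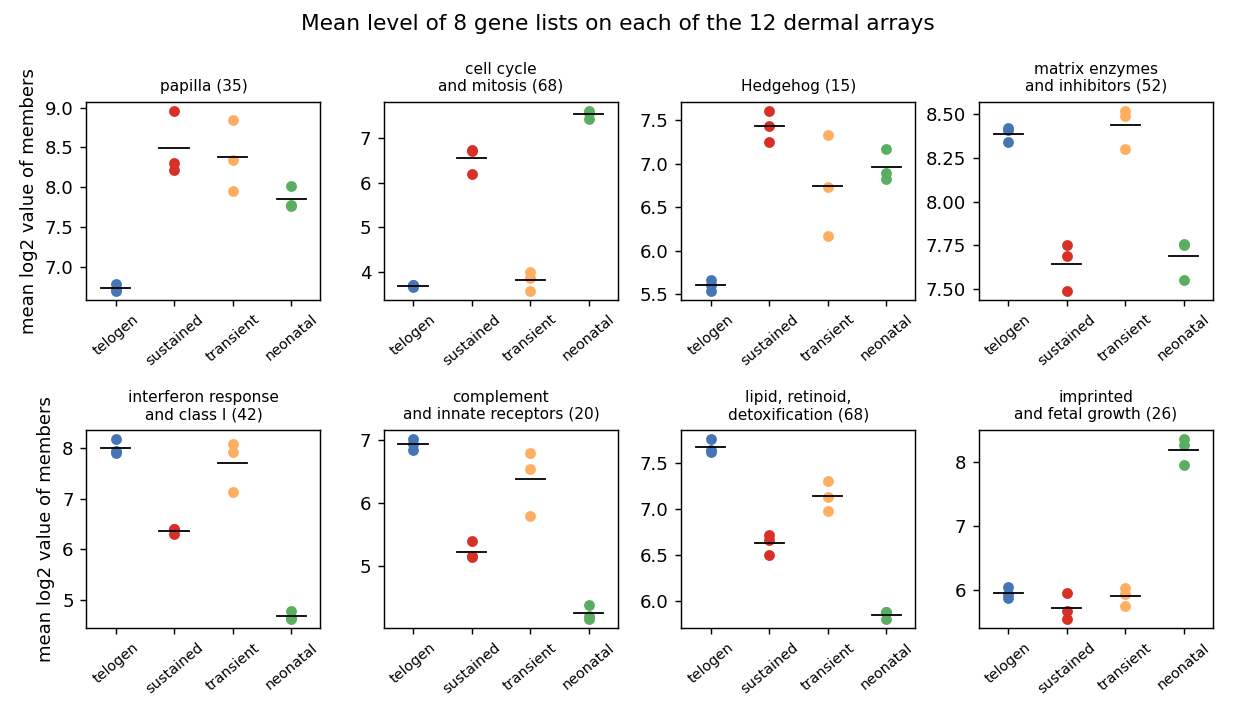
Mean deposited log2 value of the named members of 8 lists on each of the 12 dermal arrays, with the number of members in brackets. Points are arrays and bars are group means. Sustained arrays lie near transient ones for papilla genes, between transient and neonatal ones for cell-division and interferon genes, and near telogen and transient ones for imprinted genes.

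Fewer list members were called in a fit of the 6 sustained and telogen arrays alone, where the spread rests on fewer arrays. Papilla genes gave 14 higher, cell-division genes 38 and Hedgehog genes 7. Replication genes gave 15 higher in place of 29, Wnt genes 6 in place of 15, guidance molecules 4 in place of 10 and metabolic genes 1 in place of 5. Lower members numbered 19 in place of 31 for matrix enzymes, 16 in place of 25 for matrix proteins, 15 in place of 23 for chemokines, 10 in place of 18 for growth factors and 1 in place of 6 for imprinted genes. The BMP, TGF-beta and Notch list gave 2 higher and 4 lower. Interferon genes gave 20 lower and complement genes 8. Of the 2 raised genes of the adult dermis list neither was called. Raised keratinocyte markers were 2 in this fit and 10 with all 24 arrays, and raised follicle keratinocyte markers were 5 in this fit.

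The same sustained arrays were set against transient and neonatal dermis, so these comparisons are not independent of the main one. Against transient dermis 2.22% of probe sets were called, of which 527 probe sets were higher (1.17%) and 472 lower (1.05%), or 4.41% and 6.16% of the named genes. These 999 calls became 258, 561 and 354 without sustained replicate 2, 3 or 5 and 372 and 388 without transient replicate 2 or 3, and a fit of the 6 arrays alone called 0, with 7307 probe sets at an unadjusted p under 0.05. Cell-division genes accounted for 40 members higher of 68 and replication genes for 18 of 49. Papilla genes gave none higher and 1 lower of 35. Lower than in transient dermis were 16 of 67 matrix proteins, 15 of 52 matrix enzymes, 16 of 68 metabolic genes and 7 of 42 interferon genes. Ngfr was 2.15 above transient dermis, and Corin was 0.68 below it without a call.

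Against neonatal dermis 4.35% of probe sets were called, of which 1286 probe sets were higher (2.86%) and 671 lower (1.49%), or 11.3% and 6.91% of the named genes. Leaving out sustained replicate 2, 3 or 5 gave 1027, 927 and 1082 calls in place of 1957, and leaving out neonatal replicate 1, 2 or 3 gave 1032, 1077 and 995. Interferon and class I genes were higher in 20 of 42, metabolic genes in 19 of 68 and papilla genes in 7 of 35. C3 was 2.91 above and B2m 1.12 above neonatal dermis. Cell-division genes were lower in 6 of 68 and higher in none. The mean level of C3 was 11.19 in telogen, 6.23 in sustained and 3.32 in neonatal dermis. The mean level of Ccnb2 was 3.15 in telogen, 7.13 in sustained and 8.13 in neonatal dermis. For both genes the sustained mean lay between the telogen and neonatal means, but the gap between sustained and neonatal dermis was not called for Ccnb2.

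Markers of other cells were few among the named genes. Endothelial markers gave 2 higher and 2 lower of 7: Tek and Kdr, vessel growth factor receptors, fell by 4.39 and 3.26, and Erg and Sox18 rose. The endothelial sum overlapped, at 971 to 1400 in sustained and 980 to 1300 in telogen dermis. Of 11 pericyte and smooth muscle markers 3 rose (Actg2, Tagln and Cspg4) and 3 fell (Abcc9, Kcnj8 and Des), with a median difference of 0.46. Abcc9 and Kcnj8, which encode the subunits of 1 potassium channel, fell by 4.92 ± 0.68 and 4.45 ± 0.61, and the sum fell from 3340 to 4510 in telogen to 1950 to 2370 in sustained dermis. Skeletal muscle markers summed to 157 to 428 in telogen and 59.6 to 77.9 in sustained dermis, and adipocyte markers to 3980 to 4750 and 1760 to 2670. Of 9 adipocyte markers 2 were lower, a share near the background, 1 was higher and 6 were not called, with a median difference of -0.18. The 1 raised adipocyte marker was not called without sustained replicate 2 or 5 or telogen replicate 2 or 4. Melanocyte and Schwann cell lists had 1 raised member each, Ednrb and Ngfr, and T cell markers 1 that fell, Il2rg. These lists are short, and leaving out 1 array changed several of their counts. Raised endothelial markers fell to 1 without sustained replicate 2 or 3 or telogen replicate 2 or 4, and lowered ones to 1 without sustained replicate 2 or 5 or telogen replicate 3 or 4. Skeletal muscle markers, of which 2 of 4 were lower, fell to 1 without sustained replicate 2 or 5, raised smooth muscle markers to 1 without sustained replicate 2 or telogen replicate 4, and the T cell call was lost without sustained replicate 3 or telogen replicate 3 or 4.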

How the data were processed

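RNA of sorted cells was amplified and hybridised to Affymetrix arrays, per the labels' protocols. The submitters' processing notes name MAS5 and RMA, without versions or roles. The deposited values are in log2 units. Each array, once unlogged and with 2% trimmed at each end, averages 100. Per the file headers, the authors' gene tables give a fold, a ratio of unlogged values, and its direction, and no depth exists for arrays, whose number limits the precision.

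Of 45101 probe sets 64 controls were left out. Names came from the authors' tables through their Entrez identifiers (6480 of 7261 listed probe sets were named, 14.4% of all tested), and the probe set with the highest dermal mean stood for each gene. The 12 dermal arrays entered 1 limma model (limma 3.58.1, R 4.3.3) of group means with eBayes, and p-values were adjusted over 45037 probe sets at 0.05. The code was tested on simulated data. No size was given where the dimmer mean lay below the 5th percentile of its arrays or, as decided after the values were seen, below 1.

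Genes named were the 15 largest differences in each direction (brighter mean at least 7, dimmer at least 3, no overlap), up to 5 called members per direction and 3 uncalled members of each list, and genes of the gate and the transgene. The 17 gene lists, the 13 marker lists and the comparison itself were chosen with earlier results of these data known. The promoter motifs were chosen after the values were seen. Mouse numbers recur across states and were taken to name different mice. Alternatives were other scalings, filters, array sets, a block on number and leaving out each array. Some named genes are not reported here.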

Additional observations from a re-analysis of the deposited data

Results flagged for a closer look

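For 18 of the 254 named genes, every sustained array differed from every telogen array in 1 direction in dermis and in the opposite direction in epidermis. That is 7.09%, against 6.45% of all 4560 named genes (294) and 2.11% of all probe sets, and the 254 were named partly for large dermal differences without overlap. The difference between the compartments was not tested. Genes that fell in dermis and were higher in sustained than in telogen epidermis were the following. Pcsk6 differed by -4.64 in dermis and 1.80 in epidermis, Sema3a by -4.46 and 2.41, and Kcnj8 by -4.45 and 2.38. Col4a3 differed by -3.86 and 1.80, Sp5 by -3.72 and 2.66, Dpp4 by -3.67 and 1.23, and Smoc2 by -3.64 and 0.52. Adamtsl1 differed by -3.44 and 1.06, Sema3b by -3.40 and 1.22, and Ror2 by -1.71 and 1.04. Dcn differed by -1.46 and 0.79. Epha3 differed by -1.64 in dermis, and its epidermal telogen mean of -2.30 was too dim for a size in epidermis.

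Genes that rose in dermis and were lower in epidermis were Crabp2 (3.05 and -0.96) and Pdgfc (1.91 and -2.32). The dermal difference was not called for Fstl1 (-0.30 and 1.03 in epidermis), Enpp2 (0.76 and -0.74), Acsl1 (0.71 and -1.26) and Ccl27a (0.49 and -1.46).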

How the results depend on the processing

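Sustained against telogen dermis gave 4951 called probe sets in the reported fit. The count was 7544 with an offset of 16 added before the logarithm, 2203 in a fit of the 6 arrays alone, and 2334 to 4537 with 1 array left out. Sustained against transient dermis, reported at 999, gave 1662 with all 24 arrays, 1959 without probe sets of mean under 4, 2928 with the offset, 0 with the 6 arrays alone (limma, with 7307 at an unadjusted p under 0.05), 2617 with a trended and robust prior, and 258 to 1244 with 1 array left out. Sustained against neonatal dermis, reported at 1957, gave 3289 with array weights, 3253 without dim probe sets, 4451 with the offset, 1113 with the 6 arrays alone, 3889 with the trended prior, and 927 to 1082 with 1 array left out. The share of calls higher in sustained than in telogen dermis, 65.4%, turned to 45.2% under quantile normalization and 26.3% under median centring, and 3091 and 3085 of the 4951 calls were shared in the same direction. Among 177 called named genes no difference changed sign under any scaling, filter or array set tried. A second probe set differed in sign for Laptm5 (1.97) and Meg3 (0.73). Cause was not tested.

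Sustained and telogen mice share the numbers 2 and 3 only. Deviations from the group means of arrays with equal numbers correlated at 0.01 and 0.02, so the numbers were not taken to pair the mice. With the number as a replicate block the counts were 837 against telogen, 1 against transient and 75 against neonatal dermis. Signal near background limits sizes for dim genes.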
